A study of Mus musculus with 48 samples.

Results

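Expression of 9 genes that restrain the cell cycle or serve as markers of cell senescence was followed in whole mouse tibia: Cdkn1a, Cdkn1b, Cdkn1c, Cdkn2a, Cdkn2c, Cdkn2d, Trp53, Mdm2 and Lmnb1. They were taken by gene name from the deposited expression table, where 9 of 9 names were found, each on 1 line, among 29801 genes. Tibiae of 12 male C57Bl6J mice were sequenced, with 3 mice in each of 4 groups. Aged calorie-restricted (CR) mice and aged mice with free access to food (ad libitum, AL) were 15 to 18 months old when the diet began, and young CR and young AL mice were 10 weeks old by the series description, so bones taken after the diet came from older mice. The CR mice ate a micronutrient-fortified NIH-31/NIA diet for 8 weeks, cut by 10% in week 1, by 20% in week 2 and by 40% from week 3, whereas the AL mice ate NIH-31 chow. Diet composition thus differed between CR and AL as well as the amount eaten. Mice of the study also underwent a tibial osteotomy on the right leg, and whether the sequenced bones were operated is not stated in the sources at hand. Muscle and connective tissue were removed before the bones were frozen and ground, so bone, cartilage and marrow were measured together.

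Cell division past the G1 phase requires cyclin-dependent kinases, which phosphorylate the retinoblastoma protein and thereby release E2F transcription factors. INK4 proteins, encoded by Cdkn2a, Cdkn2c and Cdkn2d, bind the kinases CDK4 and CDK6, while the Cip/Kip proteins, encoded by Cdkn1a (p21), Cdkn1b (p27) and Cdkn1c (p57), inhibit a broader range of cyclin-kinase complexes. Trp53 encodes p53, a transcription factor stabilized by DNA damage, and Cdkn1a and Mdm2 are classical p53 target genes. Mdm2 encodes the ubiquitin ligase that marks p53 for degradation. Cells that leave the cycle for good, termed senescent, commonly raise p16 (from Cdkn2a) and p21 and lose lamin B1, the nuclear envelope protein encoded by Lmnb1. In marrow and bone these genes also act in normal life: p57 and p27 hold blood stem cells in quiescence, and p18 (Cdkn2c) limits the division of blood progenitors and plasma cell precursors.

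Cdkn1a, Cdkn2a and Cdkn2c have 2 RefSeq start regions each, while the table gives 1 value per gene. The start regions of Cdkn1a and Cdkn2a are shown because their products p21 and p16 are the inhibitors most often used to score senescence. For Cdkn1a, on the plus strand of chr17:29090976-29100727 (GRCm38), the 250 bases before each of its RefSeq starts (build GRCm38.p6) are given below, 5′ to 3′, from chr17:29090729-29090978 (upstream) and chr17:29093519-29093768 (downstream). Capitals mark ACATGT, which reads the same on both strands and is the core of many p53 half-sites, and GGGCGG or its reverse complement, the core of the binding motif of Sp1.
Cdkn1a upstream start: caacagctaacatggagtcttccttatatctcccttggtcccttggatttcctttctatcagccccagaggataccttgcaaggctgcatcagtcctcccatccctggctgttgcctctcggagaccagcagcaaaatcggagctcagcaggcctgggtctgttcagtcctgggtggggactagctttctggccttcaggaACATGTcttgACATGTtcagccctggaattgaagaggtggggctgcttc
Cdkn1a downstream start: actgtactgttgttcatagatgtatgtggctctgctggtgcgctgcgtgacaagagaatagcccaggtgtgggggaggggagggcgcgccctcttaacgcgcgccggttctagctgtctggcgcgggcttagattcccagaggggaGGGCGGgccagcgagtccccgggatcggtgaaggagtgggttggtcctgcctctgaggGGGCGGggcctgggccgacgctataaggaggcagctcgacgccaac
The upstream stretch held 2 copies of ACATGT, beginning 49 and 39 bases before the start, whereas the downstream stretch held none and had 2 copies of GGGCGG, 104 and 46 bases before its start. Of 32851 RefSeq promoters of this length, 4.58% held at least 1 ACATGT and 0.247% at least 2, and 32.7% held GGGCGG on either strand. No ACATGT was found in the 250 bases before the RefSeq starts of Cdkn1b, Cdkn2a, Cdkn2c, Cdkn2d, Trp53 and Mdm2, and Cdkn1c and Lmnb1 were not matched. Bases elsewhere in these genes, introns included, were not searched, so sites there would not be seen. A match is a description of the letters only.

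Cdkn2a, on the minus strand of chr4:89274471-89294653, encodes 2 unrelated proteins: p16, the INK4 inhibitor, and p19Arf, an inhibitor of Mdm2. Each message has its own first exon and start. The 250 bases before the starts lie at chr4:89294620-89294869 for p19Arf and chr4:89282193-89282442 for p16 and are written on the strand of the gene, with the same motifs in capitals.
Cdkn2a p19Arf start: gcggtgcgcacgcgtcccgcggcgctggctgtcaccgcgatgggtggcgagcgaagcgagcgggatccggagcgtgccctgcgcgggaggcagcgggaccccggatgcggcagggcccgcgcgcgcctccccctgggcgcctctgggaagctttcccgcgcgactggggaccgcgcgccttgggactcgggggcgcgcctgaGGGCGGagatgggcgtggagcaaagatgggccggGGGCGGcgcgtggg
Cdkn2a p16 start: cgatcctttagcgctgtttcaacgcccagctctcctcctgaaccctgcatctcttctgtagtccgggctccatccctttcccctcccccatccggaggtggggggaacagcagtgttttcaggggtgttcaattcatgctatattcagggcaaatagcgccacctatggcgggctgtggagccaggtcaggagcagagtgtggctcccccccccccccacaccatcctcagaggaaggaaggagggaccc
The p19Arf stretch held 2 copies of GGGCGG, 48 and 14 bases before the start, and the p16 stretch none. Both first exons join the same exon 2 (chr4:89276645-89276985), as the GENCODE M21 messages show, with the last 30 bases of exon 1 in lower case and the first 45 bases of exon 2 in capitals.
p16 message (ENSMUST00000060501): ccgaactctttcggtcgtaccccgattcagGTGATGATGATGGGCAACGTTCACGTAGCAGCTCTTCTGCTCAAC
p19Arf message (ENSMUST00000107131): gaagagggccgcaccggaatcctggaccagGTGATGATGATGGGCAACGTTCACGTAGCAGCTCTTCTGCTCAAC
The capitals are identical in both messages, but exon 1 leaves 0 coding bases over after whole codons in the p16 message and 1 in the p19Arf message, so exon 2 is read in different frames, and the proteins are 168 and 169 residues long. The single Cdkn2a value per mouse below therefore cannot be assigned to p16 or to p19Arf.

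Expression is given as quantile-normalized FPKM, a fragment count scaled by transcript length and by the mapped reads of a library, which corrects for gene length and so allows levels of different genes to be compared. Cdkn2d (p19Ink4d) was the most abundant member, at 98.8 FPKM on average over the 12 mice, with 90.7 FPKM in the lowest and 111 FPKM in the highest mouse. Lmnb1 followed at 51.8 FPKM, and then came Cdkn1b at 28.9, Cdkn2c at 26.7, Trp53 at 22.9 and Mdm2 at 18.7 FPKM. Cdkn1a averaged 7.98 FPKM, Cdkn1c 5.94 FPKM and Cdkn2a 0.979 FPKM. Compared within each mouse, Cdkn2d, Lmnb1, Trp53 and Mdm2 each lay above the next gene in this order in 12 of 12 mice. Cdkn1b lay above Cdkn2c, Cdkn2c above Trp53, Cdkn1a above Cdkn1c and Cdkn1c above Cdkn2a in 11 of 12 mice each, the exceptions being aged AL mouse 13, aged AL mouse 14, young AL mouse 10 and again aged AL mouse 14. Cdkn2b, the fourth INK4 gene, is not among the members and stayed at 0.43 FPKM or less.

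Most members varied little. The SD of log2(FPKM + 1) over the 12 mice was 0.09 for Cdkn2d, 0.10 for Mdm2, 0.11 for Trp53 and Lmnb1, 0.12 for Cdkn2c and 0.14 for Cdkn1b, against a median of 0.16 over the 13590 genes that averaged 1 FPKM or more. Cdkn1a (0.30), Cdkn1c (0.42) and Cdkn2a (0.70) varied more. The plot of the members in each mouse shows this contrast between steady and variable genes.

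**Figure D1:**
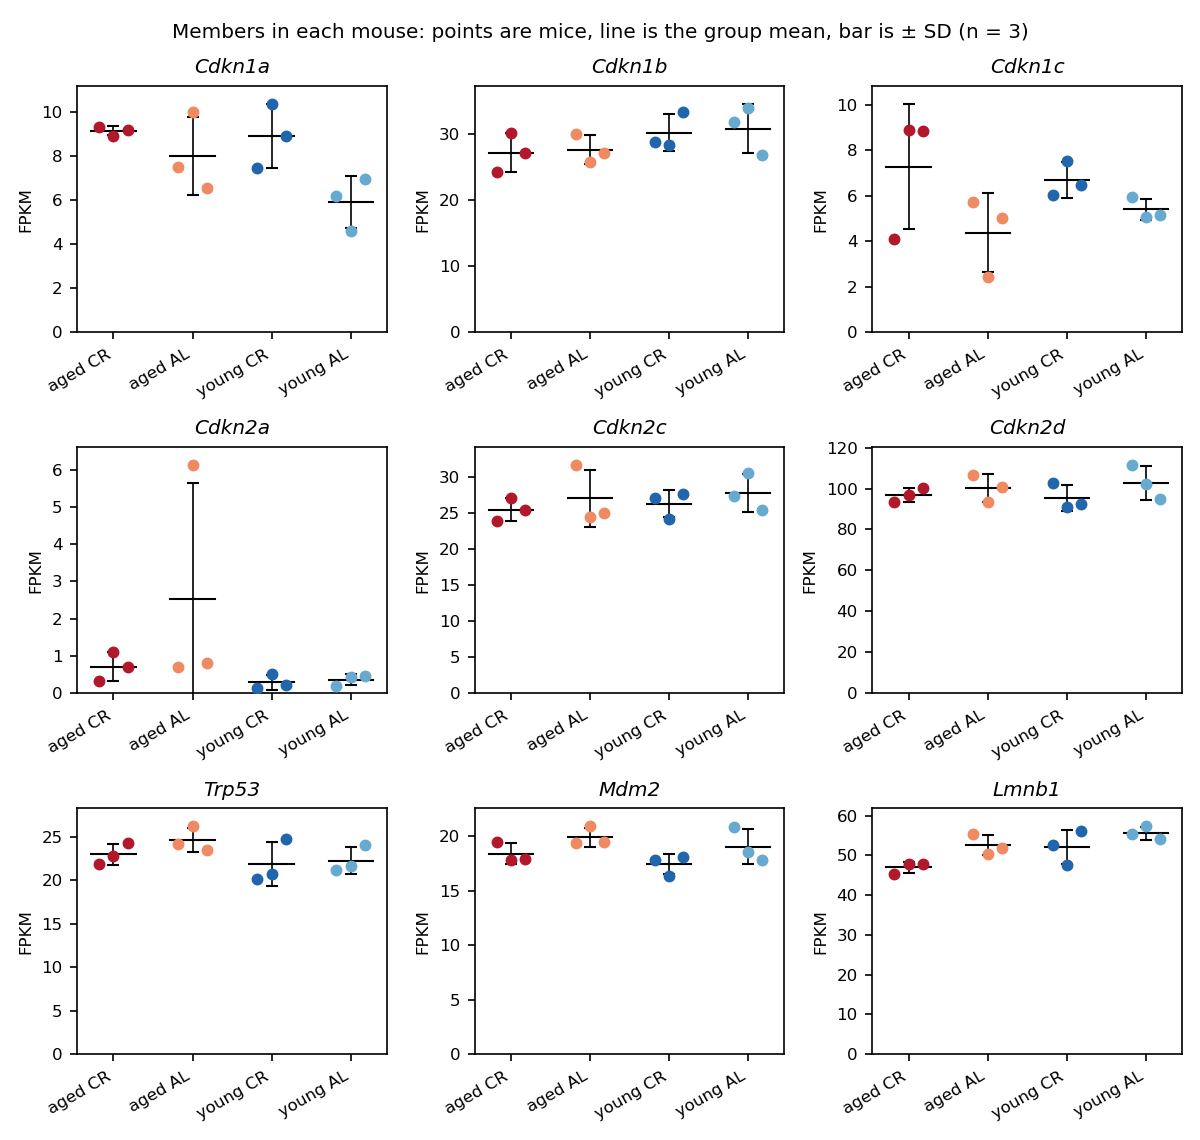
FPKM (vertical axes, from 0) of the 9 members in each of the 12 mice, by group; points are mice, horizontal lines group means and bars ± SD (n = 3). Cdkn2d, Trp53 and Mdm2 form level bands, Cdkn1a is lowest in young AL mice (mean 5.90 FPKM), and Cdkn2a is at 1.11 FPKM or less except in aged AL mouse 14 (6.12 FPKM).

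Each gene was tested with limma on log2(FPKM + 1) in 1 fit of the 4 group means, with Benjamini-Hochberg adjustment over all 13590 genes that averaged 1 FPKM or more. Of the members, 8 entered, and Cdkn2a fell below the filter. At an adjusted p under 0.05, 0 of 8 members passed in each of 7 comparisons. The share of all genes that passed was 0% for CR against AL in aged mice, 0.0662% for CR against AL in young mice, 0.258% for CR against AL over both ages, 0.758% for aged against young over both diets, 0.0662% for aged against young in AL mice, 0.361% for aged against young in CR mice, and 0% for the difference between the diet effects at both ages. At an unadjusted p under 0.05, 1 member was higher with CR in aged mice (background 4.5% of genes), 1 in young mice (5.79%) and, over both ages, 2 were higher (7.42%) and 1 lower (6.45%). Another 1 was higher in aged than in young AL mice (3.58%). For age over both diets 0 of 8 passed unadjusted, where 6.8% of all genes were higher and 9.76% lower. The same held for age in CR mice (5.03% higher, 6.39% lower) and for the difference between the diet effects (2.37% and 1.86%). Diet groups that did not overlap in opposite directions at both ages were seen in 0 of 8 members and in 0.235% of all genes. An unequal-variance test on FPKM between pairs of groups, the kind of test the study used, called 0 of 8 members after adjustment. It also called 0 of all genes for CR against AL in young mice and for aged against young in AL and in CR mice. The count of 0 is thus not particular to the members there. The study selected its genes at a p under 0.05 and did not state whether that p was adjusted. It reported genes higher and lower with CR in young mice, where the adjusted test here called 0. Its cutoff was therefore probably applied to the unadjusted p.

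As a test free of distribution, diet labels were exchanged within each age, and age labels within each diet, in all 400 ways, giving a two-sided exact permutation p of 0.005 at the smallest, before adjustment. These p values are quoted unadjusted for each member. None of the 8 members at or above the filter kept an adjusted exact p under 0.05. For diet no gene could have done so, and the count says nothing particular about the members. An exact p of 0.015 (Lmnb1, diet) adjusted to 0.237. Too few genes thus had exact p values this small for even 0.005 to adjust below 0.05. For age, the smallest exact p of these 8 members was 0.045 (Lmnb1), which adjusted to 0.299. Among all genes, 6.83% were higher and 6.2% lower with CR at an exact p under 0.05, and 6.01% were higher and 9.02% lower with age. Of the 9 members, 1 was higher (Cdkn1a) and 2 lower (Mdm2, Lmnb1) with CR, and 1 was higher (Cdkn2a) and 1 lower (Lmnb1) with age. Within a pair of groups of 3 mice, the smallest exact p is 0.1, so no exact test is given there.

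**Figure D2:**
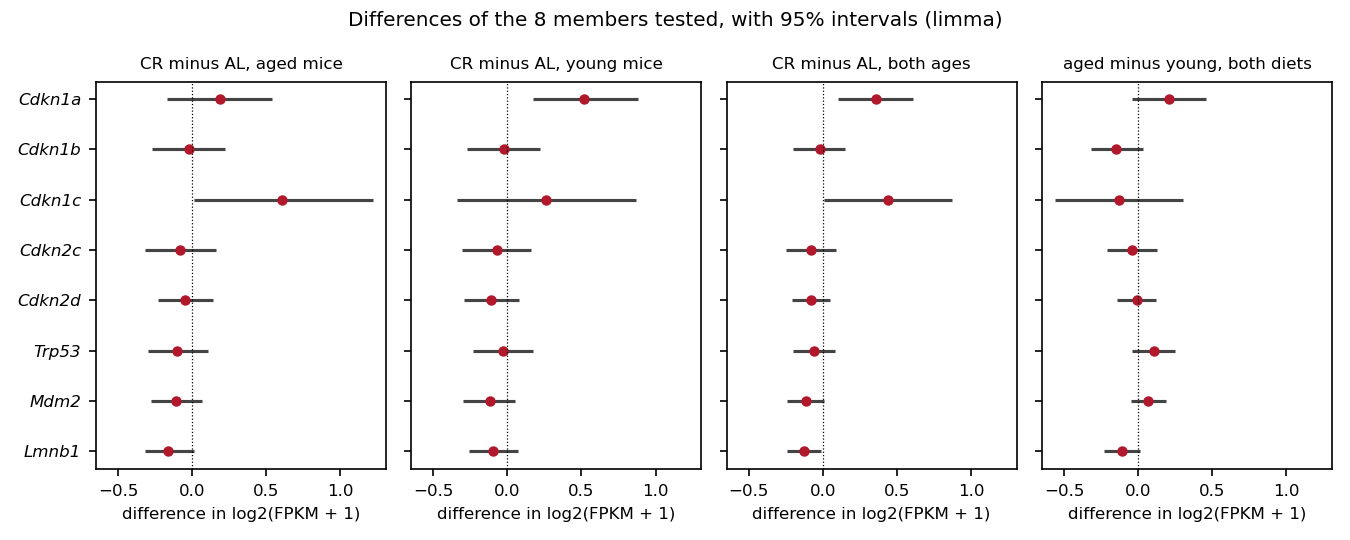
Difference in log2(FPKM + 1) (horizontal axes) for the 8 members tested, with 95% intervals from limma as lines: CR minus AL in aged mice, in young mice and over both ages, and aged minus young over both diets. Intervals leave 0 only for Cdkn1a in young mice (0.17 to 0.88) and over both ages, for Cdkn1c in aged mice and over both ages, and for Lmnb1 over both ages (-0.24 to -0.01), all before adjustment.

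Cdkn1a, the p21 gene, gave the clearest values among the Cip/Kip members. It stood at 9.31, 8.90 and 9.17 FPKM in aged CR mice, against 7.51, 9.97 and 6.53 FPKM in aged AL mice. In young mice it stood at 7.44, 10.3 and 8.89 FPKM with CR, against 6.17, 4.60 and 6.93 FPKM with AL. All young CR mice thus lay above all young AL mice, as was the case for 10.1% of all genes, while the aged groups overlapped because aged AL mouse 14 was above every aged CR mouse. The difference CR minus AL was 0.52 ± 0.16 (log2, SE, 95% interval 0.17 to 0.88, n = 3 per group) in young mice with an adjusted p of 0.281 from limma, and 0.19 ± 0.16 in aged mice with an adjusted p of 0.831. Over both ages it was 0.36 ± 0.11 (adjusted p = 0.198, limma; exact permutation p = 0.03). Without aged AL mouse 14 the difference in aged mice was 0.34 and that over both ages 0.43, with an adjusted p of 0.0827 from limma. The exact p over both ages was 0.055 without aged AL mouse 13, 0.065 without aged AL mouse 15 and 0.05 without young CR mouse 2. The diet effect in aged mice minus that in young mice was -0.34 (95% interval -0.84 to 0.17, adjusted p = 0.999, limma), so a difference between the ages was not shown. With age, Cdkn1a differed by 0.38 ± 0.16 in AL mice (adjusted p = 0.552) and by 0.04 ± 0.16 in CR mice (adjusted p = 0.95, limma). The highest and the lowest mouse differed 2.24-fold.

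Cdkn1a separated CR from AL mice in young mice only, and summed adipocyte markers separated them at both ages. They added up to between 645 and 1050 FPKM in aged CR mice and between 343 and 608 FPKM in aged AL mice. In young mice they added up to between 650 and 873 FPKM with CR and between 348 and 391 FPKM with AL. Aged AL mouse 14 had the lowest sum of the 12 mice, at 343 FPKM, but the highest Cdkn1a of the aged mice, at 9.97 FPKM. Of 11 tested adipocyte markers 11 had positive differences with CR over both ages, and 4 passed the adjusted threshold, as did 0.258% of all genes. No marker of that list was at 0 in all mice. Of 6 osteoclast markers 5 were higher with CR at an unadjusted p under 0.05, and of 12 B cell markers 4 were lower. Over all genes 7.42% were higher and 6.45% lower. The part of these cells in the Cdkn1a values was not tested, and in a bulk sample a different number of cells and a different amount of RNA per cell cannot be told apart.

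Cdkn1b, the p27 gene (chr6:134920401-134925513), had similar levels in all groups. It had 24.2, 30.2 and 27.1 FPKM in aged CR mice and 30.0, 25.7 and 27.1 FPKM in aged AL mice. In young mice it had 28.8, 28.3 and 33.3 FPKM with CR and 31.7, 33.9 and 26.7 FPKM with AL. The groups overlapped in every pairing. CR minus AL over both ages was -0.02 (95% interval -0.20 to 0.15), and aged minus young over both diets was -0.15 (95% interval -0.32 to 0.03, adjusted p = 0.382, limma; exact permutation p = 0.105). That exact p was 0.045 without aged CR mouse 6 and 0.04 without young AL mouse 11.

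Cdkn1c, the p57 gene (chr7:143458339-143461050), which is imprinted and expressed from the maternal copy, had the widest spread of the members at or above the filter. Aged CR mice had 4.09, 8.88 and 8.83 FPKM, against 5.71, 2.42 and 5.01 FPKM in aged AL mice. Young CR mice had 6.05, 7.54 and 6.48 FPKM, against 5.94, 5.08 and 5.17 FPKM in young AL mice. All young CR mice lay just above all young AL mice, as was the case for 10.1% of all genes. In aged mice 2 of 3 CR mice were above all AL mice and CR mouse 5 was below 2 of them. The difference CR minus AL was 0.61 ± 0.28 in aged mice (log2, SE, 95% interval 0.01 to 1.22, adjusted p = 0.643, limma) and 0.26 ± 0.28 in young mice (adjusted p = 0.758). Over both ages it was 0.44 ± 0.20 (95% interval 0.01 to 0.87, adjusted p = 0.352, limma; exact permutation p = 0.08). The lowest values of Cdkn1c came from aged AL mouse 14 and aged CR mouse 5, the 2 mice farthest from the others of their groups over all genes. Left out together, a choice made after seeing the data, they gave 0.45 over both ages with an adjusted p of 0.0153 from limma, so the call depends on these mice. Without mouse 14 alone the difference over both ages was 0.29 (adjusted p = 0.438) and in aged mice 0.32, and without mouse 5 alone it was 0.60 over both ages (adjusted p = 0.0989, exact permutation p = 0.01) and 0.93 in aged mice. Across ages, Cdkn1c differed by -0.13 ± 0.20 (adjusted p = 0.787), a sign that turned to 0.18 without both mice.

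Osteoblast and osteocyte markers were also lowest in mouse 14. Their summed level was 805 FPKM there, against 2400 and 1660 FPKM in the other aged AL mice and between 1230 and 1670 FPKM in aged CR mice. In young mice it was 1440 to 1870 FPKM under CR and 2120 to 2950 FPKM under AL. No gene of the list of 13 was at 0. Gene by gene, 10 had positive and 3 negative differences with CR in aged mice (median 0.23). In young mice 5 were positive and 8 negative (median -0.15). Over both ages 8 were positive, among them Mepe (0.49) and Dmp1 (0.45), and 5 negative, among them Bglap (-0.77) and Bglap2 (-0.73). The sum thus joins genes of opposite sign, and 0 of 13 passed the adjusted threshold. The part of these markers in the Cdkn1c values was not tested.

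Cdkn2a was the least abundant and most variable INK4 member, and its higher values came from aged mice. It stood at 0.329, 1.11 and 0.707 FPKM in aged CR mice and at 0.701, 6.12 and 0.799 FPKM in aged AL mice. Young CR mice had 0.142, 0.523 and 0.214 FPKM and young AL mice 0.185, 0.447 and 0.462 FPKM. All aged AL mice lay above all young AL mice, as did 5.59% of all tested genes, and 5 of 6 aged mice were above every young mouse, the exception being aged CR mouse 5. The mean difference aged minus young over both diets was 0.72 in log2(FPKM + 1), with an exact permutation p of 0.01 (12 mice). It was 0.38 without aged AL mouse 14 (exact p = 0.02), 1.47 with a pseudocount of 0.1 FPKM (exact p = 0.015), and 0.67, 0.74 and 0.74 without young AL mouse 9, 10 or 11, where the exact permutation p was 0.095, 0.07 and 0.07. In limma without the filter on low values the adjusted p was 0.436 over 28537 genes. CR minus AL was -0.41 over both ages (exact permutation p = 0.305) and 0.02 without mice 14 and 5. These levels are low and the depth is unknown, so counting error on them could not be stated.

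Cdkn2c, the p18 gene (chr4:109660876-109667189), had 24.0, 27.2 and 25.4 FPKM in aged CR mice and 31.7, 24.5 and 25.1 FPKM in aged AL mice. Young CR mice had 27.1, 24.2 and 27.6 FPKM and young AL mice 27.35, 30.6 and 25.5 FPKM. Cdkn2d, the p19Ink4d gene (chr9:21288410-21291407), had 93.2, 96.9 and 100.3 FPKM in aged CR mice and 106.6, 93.2 and 100.8 FPKM in aged AL mice. Its levels were 102.7, 90.75 and 92.6 FPKM in young CR mice and 111.4, 102.2 and 94.7 FPKM in young AL mice. Neither gene separated any pair of groups. The intervals of CR minus AL over both ages were -0.25 to 0.09 for Cdkn2c and -0.21 to 0.05 for Cdkn2d, and those of aged minus young were -0.21 to 0.13 and -0.14 to 0.12. The age difference of Cdkn2d was -0.01 and became 0.02 when the values were rescaled by size factors, and that of Cdkn2c was -0.04.

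Trp53 (chr11:69580359-69591873) and Mdm2 (chr10:117688875-117710758) encode p53 and the ligase that limits it. Trp53 stood at 21.9, 22.8 and 24.3 FPKM in aged CR mice and at 24.2, 26.2 and 23.5 FPKM in aged AL mice. In young mice it stood at 20.2, 20.7 and 24.75 FPKM with CR and at 21.2, 21.6 and 24.0 FPKM with AL. CR minus AL was -0.06 over both ages (95% interval -0.20 to 0.08) and aged minus young 0.11 (95% interval -0.04 to 0.25, exact permutation p = 0.115), with the groups overlapping. The age difference was 0.13 with an exact p of 0.045 when the values were rescaled by size factors. Without young CR mouse 3 the exact p was 0.02 for age and 0.04 for diet. Mdm2 stood at 19.5, 17.8 and 17.95 FPKM in aged CR mice and at 19.4, 20.9 and 19.5 FPKM in aged AL mice. Its young levels were 17.8, 16.4 and 18.1 FPKM with CR and 20.8, 18.5 and 17.8 FPKM with AL. CR minus AL was -0.11 ± 0.06 over both ages (95% interval -0.24 to 0.01, adjusted p = 0.397, limma; exact permutation p = 0.04), a difference of similar size in aged (-0.11) and young (-0.12) mice. Leaving out single mice moved that exact p to between 0.01 and 0.10. Over both ages Mdm2 had a negative difference with CR and Cdkn1a a positive one, and neither passed the adjusted threshold. A part of p53 in these differences was not tested.

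Lmnb1, which encodes lamin B1, lies on chr18:56707813-56753424 and had 45.3, 47.9 and 47.8 FPKM in aged CR mice, against 55.45, 50.5 and 51.9 FPKM in aged AL mice. Young CR mice had 52.6, 47.5 and 56.2 FPKM, against 55.3, 57.4 and 54.2 FPKM in young AL mice. All aged CR mice lay below all aged AL mice, as did 5.33% of genes, while the young groups overlapped. The difference CR minus AL was -0.16 ± 0.08 in aged mice (adjusted p = 0.663, limma), -0.10 ± 0.08 in young mice (adjusted p = 0.666) and -0.13 ± 0.05 over both ages (95% interval -0.24 to -0.01, adjusted p = 0.318; exact permutation p = 0.015). Without mice 14 and 5 it was -0.13 with an exact p of 0.05. Aged minus young was -0.11 ± 0.05 over both diets (95% interval -0.23 to 0.01, adjusted p = 0.329, limma; exact permutation p = 0.045). The exact p for age was between 0.015 and 0.085 when single mice were left out, and the difference was -0.08 (exact p = 0.16) without mice 14 and 5. The group mean was lowest in aged CR mice, at 47.0 ± 1.47 FPKM, and highest in young AL mice, at 55.6 ± 1.61 FPKM (SD, n = 3 each), and single mice spanned 1.27-fold.

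Aged AL mouse 14 stood apart from the other mice beyond the members. Its tested genes differed from the mean of the other aged AL mice by 0.44 (root mean square, log2), the largest distance of the 12 mice, which otherwise ranged between 0.24 and 0.38. By more than 1 log2 unit, 52 genes were above and 22 below all other mice, and aged CR mouse 5 came next with 34 and 3. In genes picked after their values were seen, the Fc receptor gene Fcgr4 was at 346 FPKM in mouse 14 and between 14.6 and 27.9 FPKM in the others, and the monocyte receptor gene Cd300e at 49.5 FPKM against 0.281 to 2.04 FPKM. Prg2, which encodes the major basic protein of eosinophils, was at 57.4 FPKM against 338 to 1200 FPKM. Cdkn2a was highest and Cdkn1c lowest in the same mouse, as the plot of these genes on a log axis shows.

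**Figure D3:**
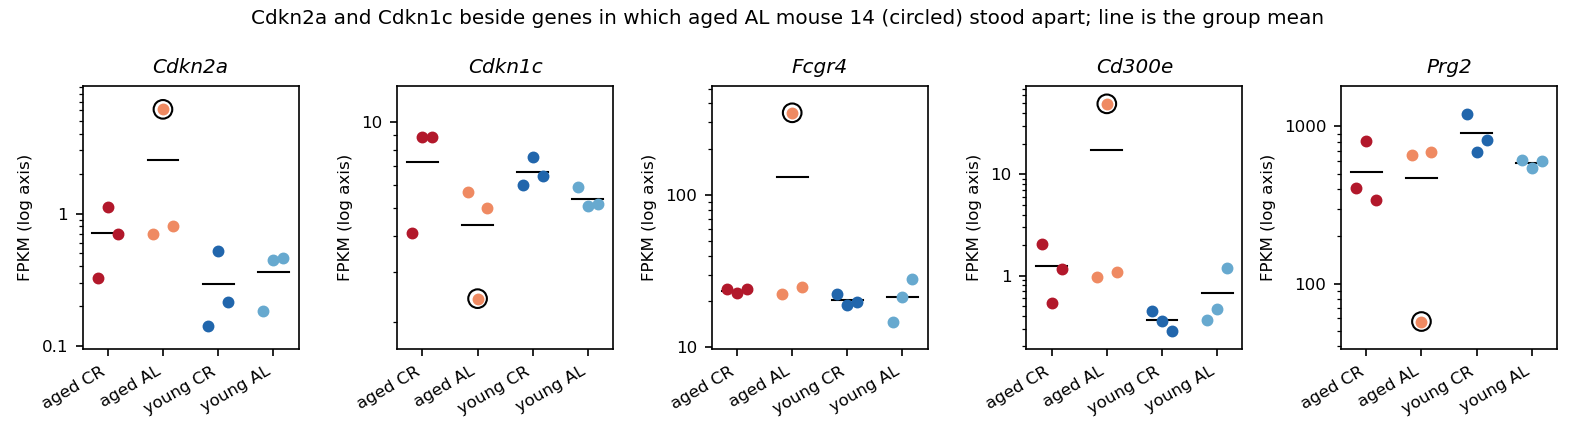
FPKM on log axes of Cdkn2a, Cdkn1c, Fcgr4, Cd300e and Prg2 in each mouse by group, with group means as lines and aged AL mouse 14 circled. That mouse has the highest Cdkn2a (6.12 FPKM), Fcgr4 (346 FPKM) and Cd300e (49.5 FPKM) and the lowest Cdkn1c (2.42 FPKM) and Prg2 (57.4 FPKM) of the 12.

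The genes most alike to each member over the 12 mice were named by Pearson's r of log2(FPKM + 1), as a description chosen from all tested genes. Cdkn1a was most like Jun (r = 0.95), Coq5 and Gm12161 (both 0.91). Cdkn1b was most like Ube2b (0.97), Ppp1cb (0.91) and Zbtb44 (0.90), and Cdkn1c most like Olfml3 (0.96), Maged1 (0.94) and Dmp1 (0.93), the last a matrix protein gene of osteocytes. Cdkn2c was most like Svip (0.91), Ccni (0.89) and Ednra (0.86), and Cdkn2d most like Cog3 (0.91), Arfip1 and Cops8 (both 0.88). Trp53 was most like Prpf8 (0.93), Tecpr2 and Akt1 (both 0.91), Mdm2 most like Zc3h7a (0.94), Proser1 (0.91) and Arhgap27os3 (0.90), and Lmnb1 most like Tmx4 (0.94) and Tnfrsf26 (0.91). Within the members, Cdkn1b, Cdkn2c and Lmnb1 varied together (r between 0.71 and 0.77), and Cdkn1a varied against Lmnb1 (r = -0.72) and Cdkn2d (r = -0.65). All mice share 1 normalization, and the groups contribute to each r.

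Related genes were read from lists of p53 targets, p53 regulators, G1 cyclins and kinases, other kinase inhibitors, proliferation markers, senescence secretory genes, lamina and chromatin genes, FOXO and Kip regulators and imprinted growth genes. Over all genes, 7.42% were higher and 6.45% lower with CR at an unadjusted limma p under 0.05. For age these shares were 6.8% and 9.76%. At the adjusted threshold 0.258% passed for diet and 0.758% for age. List counts below, cell type markers included, stand beside these shares. Of 26 tested p53 target genes, 0 passed the adjusted threshold for diet over both ages, with 1 higher and 4 lower before adjustment (p under 0.05), and 0 passed for age, with 3 higher and 2 lower. The list median was -0.01 for diet, against 0.00 over all genes, and 0.02 for age, against -0.02 over all genes. Gdf15, a secreted stress cytokine, had the smallest p for diet at 0.60 ± 0.11 (log2, SE, adjusted p = 0.0553, limma), followed by Ckap2 (-0.28) and Rrm2b (-0.26), a ribonucleotide reductase subunit, both with an adjusted p of 0.175. For age, Plk3 (0.22, adjusted p = 0.131) and Phlda3 (0.45, adjusted p = 0.169), an inhibitor of Akt, had the smallest p. With quality weights per mouse, under which 6.79% of all genes passed for diet and 13.2% for age, 1 of the 26 targets was higher and 3 were lower with CR, among them Gdf15 (0.52, adjusted p = 0.0135), Ckap2 (adjusted p = 0.0183) and Rrm2b (adjusted p = 0.0358). Under these weights 1 was higher with age, Plk3 (adjusted p = 0.016), and 2 were lower, Xpc (adjusted p = 0.0388) and Fas (adjusted p = 0.0305). Without mice 14 and 5, where 3.25% of all genes passed for diet and 1.61% for age, 1 target was higher with CR (Gdf15, adjusted p = 0.0251), 1 was lower, and 0 passed for age. Of 12 p53 regulators, 0 passed for either factor, with 1 higher for diet (Ppm1d, a phosphatase of p53, 0.15, adjusted p = 0.353) and 0 for age at an unadjusted p under 0.05.

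Genes on which the inhibitors act gave a similar picture. Of 20 G1 cyclins, kinases and Rb-E2F genes, 0 passed for diet (1 higher and 5 lower unadjusted) and 0 for age (2 higher and 3 lower). Rb1, the retinoblastoma gene, had -0.37 ± 0.09 with CR (adjusted p = 0.0965), and Skp2, whose product targets p27 for degradation, 0.24 ± 0.07 (adjusted p = 0.148, limma). Ccnd2, which encodes cyclin D2, had 0.68 ± 0.15 with age (adjusted p = 0.0683), with 11.4, 7.805 and 10.9 FPKM in aged CR mice and 10.6, 20.0 and 20.3 FPKM in aged AL mice, against 7.002, 7.62 and 6.94 FPKM in young CR mice and 7.19, 7.93 and 8.68 FPKM in young AL mice. Its age difference was 0.41 ± 0.21 in CR mice (adjusted p = 0.49) and 0.96 ± 0.21 in AL mice (adjusted p = 0.286), and CR minus AL was -0.67 ± 0.21 in aged mice (adjusted p = 0.491, limma). With quality weights, 1 of the 20 genes was higher with CR (Skp2, adjusted p = 0.0266), 3 were lower, among them Rb1 (adjusted p = 0.00954), and 2 were higher with age, among them Ccnd2 (0.48, adjusted p = 0.0386), while 0 passed without mice 14 and 5. Of 20 proliferation markers, 0 passed for diet and 0 for age, and at an unadjusted p under 0.05 none changed with diet and 3 were lower with age. Their median was -0.04 for diet (5 positive, 15 negative) and -0.10 for age (2 positive, 18 negative), against 0.00 and -0.02 over all genes. With age, Birc5 (-0.21), Tyms (-0.18) and Cdc20 (-0.13) had the smallest p (adjusted p from 0.191 to 0.210, limma). Of 4 other kinase inhibitors, 0 passed for either factor, and 1 was lower with age unadjusted, Cdkn3 (-0.21 ± 0.06, adjusted p = 0.153, limma), which encodes a phosphatase of CDK2. With quality weights Cdkn3 (adjusted p = 0.0271) and 1 proliferation marker, Tyms (adjusted p = 0.0366), were lower with age.

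Senescence secretory genes, the cytokines, proteases and growth factor binding proteins that senescent cells release, held 1 gene that rose with CR. Igfbp3, which binds insulin-like growth factors in blood and tissue, had 4.56, 8.96 and 9.44 FPKM in aged CR mice, against 2.996, 1.66 and 2.25 FPKM in aged AL mice. Young CR mice had 8.55, 11.4 and 11.1 FPKM, against 2.96, 3.99 and 3.59 FPKM in young AL mice. CR lay above AL in every mouse at both ages, by 1.34 ± 0.16 over both (log2, SE, adjusted p = 0.00853, limma), and the gene passed whichever single mouse was left out. Without the filter on low values its adjusted p was 0.0526. It was the 1 gene of 23 tested that passed for diet, while 4 were higher and 0 lower unadjusted, with Gdf15 and Timp2 (0.26, adjusted p = 0.0996) among the others. For age, 0 of 23 passed, with 5 higher and 1 lower unadjusted. The higher genes were led by the chemokine genes Ccl8 (1.89 ± 0.40, adjusted p = 0.0591) and Ccl5 (0.93 ± 0.20, adjusted p = 0.0669, limma) and by Igfbp5 (0.50 ± 0.11, adjusted p = 0.0731). The 1 lower with age was Igfbp3 itself (-0.45 ± 0.16, adjusted p = 0.21, limma). With quality weights, 5 of 23 were higher with CR, Gdf15 and Timp2 (adjusted p = 0.0217) included, and 4 were higher with age, among them Ccl8 (adjusted p = 0.00785), Ccl5 (adjusted p = 0.00544) and Igfbp5 (adjusted p = 0.00442). Without mice 14 and 5, 4 were higher with CR and 1 with age (Igfbp5, adjusted p = 0.00493). The list median was 0.02 for diet and -0.02 for age. Of the 32 genes on the list 9 fell below the filter, and Il6 was among them at 0.71 FPKM or less.

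**Figure D4:**
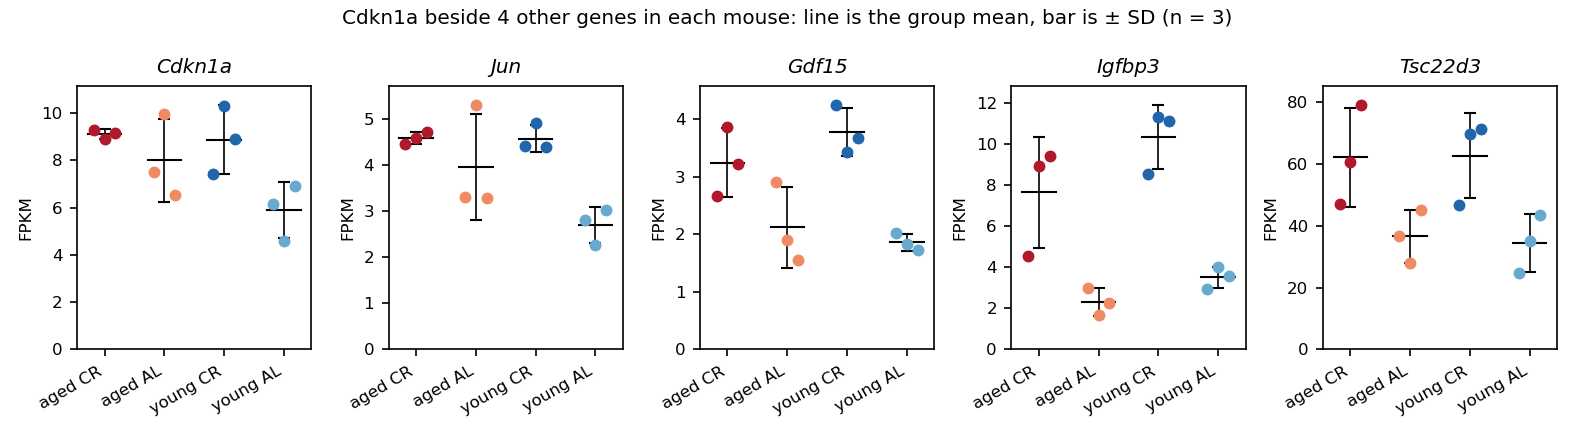
FPKM (vertical axes, from 0) of Cdkn1a, Jun, Gdf15, Igfbp3 and Tsc22d3 in each mouse by group; points are mice, lines group means and bars ± SD (n = 3). Igfbp3 lies between 4.56 and 11.4 FPKM in CR mice and between 1.66 and 3.99 FPKM in AL mice, while Cdkn1a and Jun overlap between aged CR and aged AL mice through mouse 14.

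Of 14 FOXO factors and Kip regulators, 0 passed for diet over both ages. Unadjusted, 5 were higher (7.42% of all genes) and 0 lower (6.45%). The list median was 0.00 in aged mice, with 7 positive and 7 negative differences, and 0.32 in young mice, with 10 positive and 4 negative, against 0.00 and 0.01 over all genes. The diet effect in aged minus that in young mice had a list median of -0.24, with 2 positive and 12 negative, against -0.01 over all genes. Of the 14, 0 passed for this difference, as did 0% of all genes, so that count says nothing particular about the list. For diet over both ages, Per1, a circadian clock gene, had 0.88 ± 0.17 (adjusted p = 0.0579, limma). Ddit4, an inhibitor of mTORC1, had 1.05 ± 0.23 (adjusted p = 0.0816), and Tsc22d3, a gene induced by glucocorticoids, 0.80 ± 0.18 (adjusted p = 0.0844, limma). Jun, the gene most like Cdkn1a, had 0.39 ± 0.10 (adjusted p = 0.111), and 0.49 with an adjusted p of 0.0108 without mouse 14. With quality weights 5 of 14 were higher with CR, among them Per1 (adjusted p = 0.0107), Ddit4 (adjusted p = 0.012), Tsc22d3 (adjusted p = 0.0193) and Jun (adjusted p = 0.00474). These 4 also passed without mice 14 and 5, at an adjusted p of 0.0262, 0.0224, 0.0427 and 0.00838 from limma, again among 5. For age, 0 of 14 passed, with Tgfb1 higher (0.23) and Fos lower (-0.46) unadjusted, and both passed with quality weights (adjusted p = 0.0339 and 0.0133). Of 7 tested imprinted growth genes, the group to which Cdkn1c belongs, 0 passed for diet, with 2 higher unadjusted, and 1 rose with age. That gene was Mest, with 2.602, 1.995 and 2.92 FPKM in aged CR and 1.38, 1.70 and 1.82 FPKM in aged AL mice, against 1.19, 0.916 and 1.66 FPKM in young CR and 0.951, 0.938 and 0.619 FPKM in young AL mice. Its difference with age was 0.58 ± 0.10 (adjusted p = 0.038, limma), and the adjusted p was between 0.0559 and 0.108 when any of 9 single mice (aged CR 5 or 7, aged AL 13 or 15, young CR 1 or 2, young AL 9, 10 or 11) was left out. It was 0.0618 without mice 14 and 5 and 0.0898 without the filter on low values, and with quality weights Mest was also higher with CR (adjusted p = 0.0296, limma).

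Of 15 lamina and chromatin genes tied to senescence, 0 passed for diet, with 0 higher and 1 lower unadjusted (Hmgb1, -0.16, adjusted p = 0.277), and 0 passed for age, with 2 higher and 3 lower. Lower with age at an unadjusted p were Hmgb2 (-0.26 ± 0.07, adjusted p = 0.116), a chromatin protein lost from senescent nuclei, Ezh2 (-0.20 ± 0.07, adjusted p = 0.191), the methyltransferase that silences the Cdkn2a locus, and H2afx (-0.22 ± 0.08, adjusted p = 0.211, limma). Lmna, the gene of lamins A and C, had a positive difference (0.18 ± 0.07, adjusted p = 0.214), opposite in sign to that of Lmnb1. With quality weights Hmgb2 (adjusted p = 0.0227) was lower and 2 genes were higher with age, among them Lmna (adjusted p = 0.0165), and 0 passed for either factor without mice 14 and 5. Markers of several cell types differed with age as well. Chondrocyte markers summed to between 30.1 and 37.5 FPKM in aged CR mice and between 21.8 and 43.7 FPKM in aged AL mice, against 70.8 to 92.4 FPKM in young CR and 65.3 to 91.5 FPKM in young AL mice, and 4 of 5 tested were lower at the adjusted threshold. Megakaryocyte markers summed to between 1480 and 2280 FPKM in aged CR mice and between 1230 and 1880 FPKM in aged AL mice, against 836 to 1030 FPKM in young CR and 1280 to 1490 FPKM in young AL mice. Over both diets, 8 of 8 were higher with age at an unadjusted p under 0.05, 1 of them at the adjusted threshold. At an unadjusted p under 0.05, 8 of 8 were higher with age in CR mice (median 1.01), but 0 of 8 in AL mice (median 0.22). The shares of all genes were 5.03% and 3.58%. Neutrophil markers summed to between 33100 and 44200 FPKM in aged CR mice and between 31300 and 45700 FPKM in aged AL mice, against 46500 to 49900 FPKM in young CR and 43900 to 48500 FPKM in young AL mice, and 14 of 14 had negative differences, 5 of them at an unadjusted p under 0.05. Unadjusted, 6 of 13 osteoblast and osteocyte markers and 5 of 12 B cell markers were lower with age, and 4 of 8 plasma cell markers were higher. No marker of these lists was at 0 in all mice, and their part in the age differences above was not tested. Bone cells were present by their markers in every mouse. Skeletal muscle markers were also present, although muscle had been removed. They summed to between 171 and 1010 FPKM in aged CR mice and between 383 and 1190 FPKM in aged AL mice, the highest being mouse 14. Young CR mice had 164 to 516 FPKM and young AL mice 211 to 416 FPKM. With age over both diets, 10 of 10 had positive differences (median 0.78), 2 of them at an unadjusted p under 0.05 from limma. The part of muscle in the age differences was not tested.

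**Figure D5:**
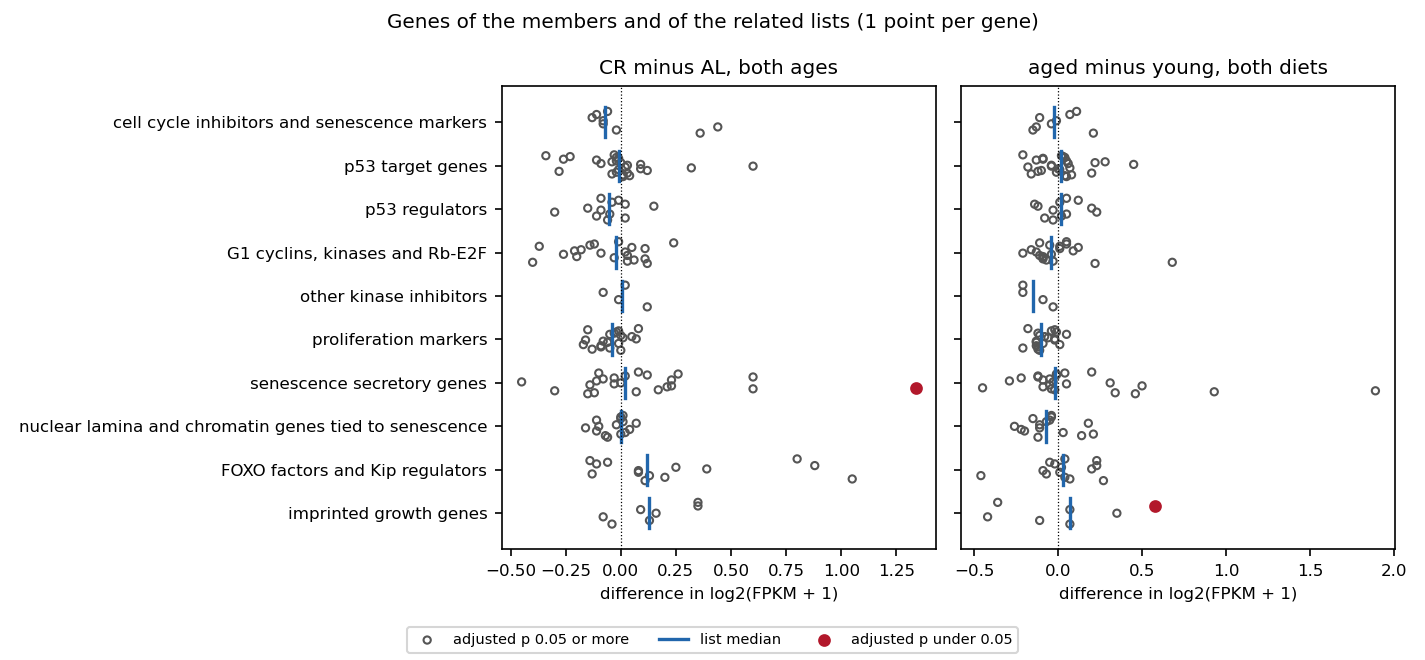
Difference in log2(FPKM + 1) (horizontal axes) of every tested gene in the members and the 9 related lists, 1 point per gene, for CR minus AL over both ages and aged minus young over both diets; blue lines are list medians and red points passed an adjusted p under 0.05. The red points are Igfbp3 for diet (1.34) and Mest for age (0.58), and list medians lie between -0.15 and 0.13.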

How the data were processed

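RNA of whole tibiae from 12 mice was sequenced, each mouse with 4 technical repeats among 48 labelled samples and 1 column in the deposited table. No source at hand states how these repeats were merged, so n counts mice, and the spread is that between mice. By the submitters' processing notes and the study's methods, the authors prepared stranded mRNA libraries, removed adapters (Trim Galore 0.5.0) after quality control (FastQC 0.11.8, MultiQC 1.6), mapped reads with STAR 2.6.1 to the mm10 genome, and estimated FPKM with StringTie 2.1.3b. The deposited FPKM values were quantile normalized by the authors, and across mice the values at any one rank lay within 0.00936 FPKM. Each mouse therefore sums to 636207 to 636212 FPKM, the depth per mouse is unknown, and changes in total RNA cannot be seen.

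Values were transformed as log2(FPKM + 1), so fold changes of low genes are understated. Genes that averaged 1 FPKM or more were fitted in limma 3.58.1 under R 4.3.3, letting the prior variance depend on the mean, p-values were Benjamini-Hochberg adjusted within a comparison over 13590 genes, and 0.05 was the threshold. The fit and the exact permutation test were tested on simulated data. Positions are from GENCODE M21 (GRCm38), in which 99.4% of the deposited identifiers were found. Members and lists were chosen with earlier results of these data known. All members are named. From each list, genes that passed and up to 4 with the smallest p were named, and for each member at or above 1 FPKM the 3 genes with the highest Pearson's r. Some genes that these rules picked are not reported here. Alternatives were another pseudocount, no filter, size factors, quality weights, 1 common prior variance, unadjusted p, fits of pairs of groups, an unequal-variance test on FPKM, and each mouse left out. Omitting both mouse 14 (aged AL) and mouse 5 (aged CR) was chosen after seeing the data.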

Additional observations from a re-analysis of the deposited data

Results flagged for a closer look

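Of 148 tested genes among the members and related lists, 1 had diet groups that separated in opposite directions at the 2 ages, as did 0.235% of all 13590 tested genes. Cdc25a, which encodes a phosphatase that activates cyclin-dependent kinases, had 12.4, 11.8 and 11.6 FPKM in aged CR mice against 13.3, 13.4 and 12.5 FPKM in aged AL mice, and 13.5, 13.7 and 13.6 FPKM in young CR mice against 13.1 FPKM in each of the young AL mice. The diet effect in aged mice minus that in young mice was -0.17 ± 0.09 (log2, SE), with an adjusted p of 0.999 from limma, so the difference did not pass its own test. The groups of 3 mice were too small for a test of single outlying mice.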

How the results depend on the processing

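No paired analysis was possible because the numbers shared between groups mark technical repeats, mouse numbers are not shared, and no source used here says which mice were littermates. Of 1032 values of the members under alternatives, 947 kept their direction and their side of the threshold, and with every alternative other than unadjusted p and the joint omission of mice 14 and 5, 0 limma values of members passed an adjusted p under 0.05. Quality weights per mouse gave 193 (aged diet), 304 (young diet), 923 (diet), 1798 (age), 28 (age in AL), 1711 (age in CR) and 1 (difference of diet effects) genes called, and age differences of 0.13 for Cdkn1c, 0.04 for Cdkn2c and 0.02 for Cdkn2d, and 0.01 for Cdkn1c in AL mice, all of reversed sign. Without the filter 1, 5, 9, 44 and 22 genes passed for aged diet, young diet, diet, age and age in CR. Fits of pairs of groups gave 74 (young diet), 4 (age in AL) and 9 (age in CR), and the unequal-variance test 0 in each of these. Unadjusted p called 1, 1, 3 and 1 members for aged diet, young diet, diet and age in AL. With both mouse 14 (aged AL) and mouse 5 (aged CR) omitted, 49, 161, 442, 219, 92 and 1 genes passed for aged diet, young diet, diet, age, age in CR and the difference of diet effects, 1 member (Cdkn1c) passed for diet, and signs reversed for age in Cdkn1c (0.18), Cdkn2c (0.01) and Cdkn2d (0.03) and for diet in Cdkn2a (0.02). Size factors gave 0.02 for Cdkn2d with age and an exact p of 0.045 for Trp53 with age (0.115 as deposited).

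Leaving out 1 mouse at a time, genes called ranged from 0 to 7 (aged diet), 0 to 43 (young diet), 8 to 223 (diet), 21 to 219 (age), 5 to 15 (age in AL), 7 to 171 (age in CR) and 0 to 1 (difference of diet effects). Differences near 0 changed sign in Cdkn1b (aged diet -0.10 to 0.05, young diet -0.12 to 0.05, diet -0.07 to 0.01), Cdkn2c (aged diet -0.14 to 0.04), Trp53 (young diet -0.11 to 0.03), Cdkn1c (age -0.22 to 0.03, age in CR -0.12 to 0.36), Cdkn2d (age -0.03 to 0.02) and Cdkn1a (age in CR -0.06 to 0.15). The cause was not tested. The depth is unknown, so counting error could not be stated for any member.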
